A study of Mus musculus with 8 samples.

Results

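The immediate early genes followed here are the 10 genes Fos, Fosb, Jun, Junb, Egr1, Egr3, Npas4, Arc, Ier2 and Dusp1, chosen by gene symbol. All 10 were among the 11496 genes of the FPKM table of neurospheres, and 5 of them (Jun, Egr1, Egr3, Ier2 and Dusp1) were among the 12056 genes of the FPKM table of cortex. All 10 also stood in the authors' deposited DESeq2 tables of 17076 and 19214 genes. FPKM counts fragments relative to transcript length and to the mapped fragments of the library.

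RNA-seq libraries were made from mice of the C57BL/6 background, either wild-type (WT) or with a conditional knockout of Hdac3 (KO). Neurospheres, which are free-floating balls of cultured neural progenitors, had been grown to day 4 from E16.5 cerebrum, with libraries WT 5, WT 6, KO 7 and KO 8. Cortex was the dorsal part, taken at postnatal day 0 (P0) and not cultured, with libraries WT 1, WT 2, KO 1 and KO 2. The cortex KO titles name Emx1, and the cortex table names a Cre of that gene, which acts in dorsal telencephalic progenitors and their progeny, so microglia, vessels and other cells outside that lineage may keep Hdac3. For the neurosphere KO no driver is named in the labels. Hdac3 removes acetyl groups from histones within corepressor complexes built on NCoR or SMRT. Its level was 34.4 and 28.7 FPKM in WT against 18.03 and 20.5 in KO neurospheres, and 48.1 and 46.1 against 26.8 and 27.1 in cortex. The KO libraries were thus lower in both tissues, although in neurospheres the difference missed the threshold (log2 fold change −0.68, adjusted p = 0.104 by limma-trend, against −0.78 and 0.000319 in cortex). The authors' deposited table gave −0.29 for Hdac3 in neurospheres (adjusted p = 0.437) and −0.52 in cortex (adjusted p = 3.83e-07).

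Immediate early genes are switched on within minutes of a stimulus, without new protein synthesis, by transcription factors that are already present, chiefly SRF with its ternary complex partners and CREB, which kinase cascades and calcium activate. Many encode transcription factors that pass the stimulus on to later genes. In neurons they follow synaptic activity, and in progenitors and glia they follow growth factors, which neural stem cell media commonly contain.

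Sequences before the start of transcription are shown for members whose KO neurosphere libraries lay above, below or among the WT libraries, because this is where SRF and CREB bind many such genes. The RefSeq table (build GRCm38.p6) matched 6 of the 10 genes, Fos, Fosb, Jun, Junb, Npas4 and Dusp1. The 250 bases before the start are given for 5 of them, from chr12:85473640-85473889 on the plus strand, chr7:19310046-19310295 on the minus strand, chr4:95052223-95052472 on the minus strand, chr19:4989972-4990221 on the minus strand and chr17:26508473-26508722 on the minus strand. Capitals mark, on either strand, the motif TGACG (the core of the cAMP response element, CRE), its palindrome TGACGTCA or the motif TATAAA.
Fos: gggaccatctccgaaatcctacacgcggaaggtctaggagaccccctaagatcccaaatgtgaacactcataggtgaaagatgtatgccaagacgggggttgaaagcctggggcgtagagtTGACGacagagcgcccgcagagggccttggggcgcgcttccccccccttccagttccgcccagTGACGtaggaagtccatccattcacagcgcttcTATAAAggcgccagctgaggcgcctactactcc
Fosb: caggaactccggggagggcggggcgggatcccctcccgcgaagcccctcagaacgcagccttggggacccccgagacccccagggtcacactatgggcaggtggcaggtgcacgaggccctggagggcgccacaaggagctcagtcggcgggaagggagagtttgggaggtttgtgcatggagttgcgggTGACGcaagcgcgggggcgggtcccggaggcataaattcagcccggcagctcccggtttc
Jun: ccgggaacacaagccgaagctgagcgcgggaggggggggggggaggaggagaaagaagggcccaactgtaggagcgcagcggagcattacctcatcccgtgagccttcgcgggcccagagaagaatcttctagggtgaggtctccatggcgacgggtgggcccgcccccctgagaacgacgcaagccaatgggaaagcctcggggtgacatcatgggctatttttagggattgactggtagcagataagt
Npas4: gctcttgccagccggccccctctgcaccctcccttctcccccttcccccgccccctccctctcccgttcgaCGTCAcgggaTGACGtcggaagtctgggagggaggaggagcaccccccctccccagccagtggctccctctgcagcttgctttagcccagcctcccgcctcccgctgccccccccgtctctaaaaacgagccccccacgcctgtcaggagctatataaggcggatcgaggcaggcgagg
Dusp1: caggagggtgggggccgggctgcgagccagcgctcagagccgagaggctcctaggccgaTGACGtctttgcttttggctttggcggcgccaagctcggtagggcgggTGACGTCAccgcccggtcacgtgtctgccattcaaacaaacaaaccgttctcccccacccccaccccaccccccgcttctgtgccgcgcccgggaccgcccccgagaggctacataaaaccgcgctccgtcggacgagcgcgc

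The core TGACG, searched on both strands, stood before 5 of the 6 genes (all but Jun) and before 17.8% of all 32851 windows of that length. The palindrome TGACGTCA, which contains the core on each strand, stood only before Dusp1, and in 1.55% of all windows. In Fos the core lay at bases 66 to 62 and 129 to 125 before the start, and TATAAA at bases 33 to 28. TATAAA was found in no other of the 6 windows, against 12.4% of all windows. The CArG box, the motif of SRF (1.47% of all windows), and TGANTCA, the motif of AP-1 (6.75%), had no match in the 6 windows. Only 250 bases and these fixed patterns were searched, so sites farther away or with other letters were not seen. A missing match therefore does not show that a gene lacks such a site. The GC box GGGCGG, not capitalised above and in Fosb once overlapping itself, was found in all but Junb, and in 32.7% of all windows. Such matches are descriptions of letters and not of binding.

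In WT neurospheres Egr1 and Jun were the most abundant members. Their levels lay at percentiles 96.4 and 96.7 (Egr1) and 93.7 and 95.2 (Jun) of the genes in the table. The order of the WT means then ran over Dusp1, Npas4, Fos, Ier2, Arc and Junb to Egr3 and Fosb at the bottom, at 2.00 ± 0.330 and 1.41 ± 0.209 FPKM (SD, n = 2). Of neighbours in this order only Arc and Junb had WT libraries that overlapped in level. In the KO libraries Jun stood first and Egr1 next, with overlapping values.

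**Figure D1:**
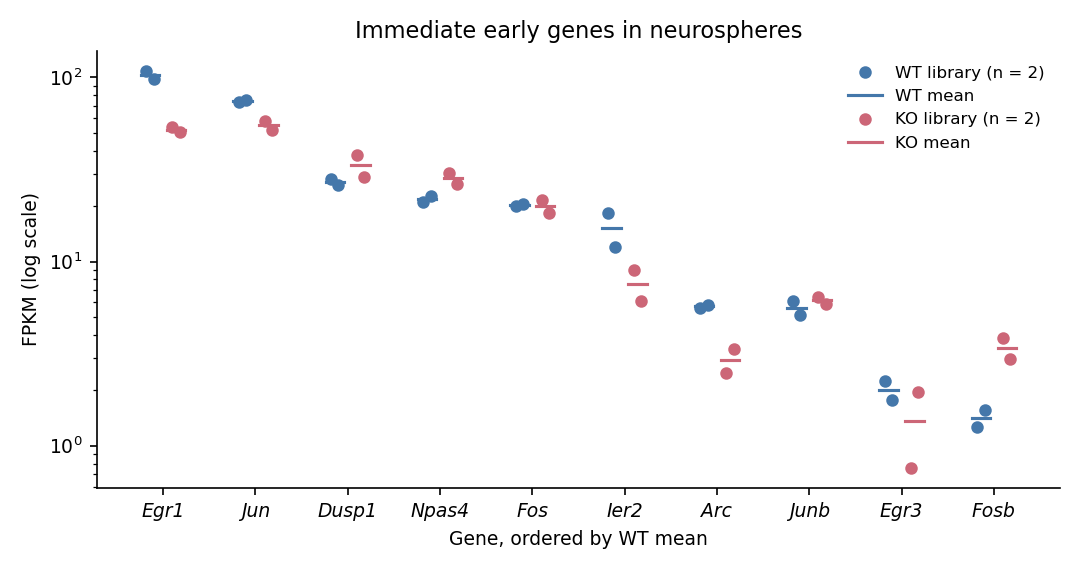
FPKM of the 10 immediate early genes in neurospheres on a log axis, with each library as a point, the group mean as a line and n = 2 per group. Egr1 lies near 103 in WT and 52.1 in KO, Arc and Ier2 are also lower in both KO libraries, and Fosb, Npas4 and Dusp1 are higher in both.

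Of the 10 members in neurospheres only Egr1 passed the test: it fell to about the ratio 0.505 of its WT level. This count of 1 of 10 stands against 1.15% of the 11408 genes tested (0.929% lower, 0.219% higher) by limma-trend, with p adjusted over all genes after Benjamini and Hochberg (BH) and a threshold of 0.05. The KO libraries lay wholly below the WT libraries for 4 members (Jun, Egr1, Arc and Ier2), as for 38.3% of all genes tested, and wholly above for 3 (Fosb, Npas4 and Dusp1), as for 14.6%. The median log2 fold change was −0.21 over the members and −0.15 over all genes, so values below are followed by their size relative to that median where it matters. A miss of the threshold does not show that a gene was level.

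Egr1 encodes a zinc finger transcription factor induced by growth factors and by synaptic activity. Its levels were 108.8 and 97.5 FPKM in WT 5 and WT 6 and 53.9 and 50.2 in KO 7 and KO 8. The KO libraries lay close together and far below both WT libraries. The log2 fold change on the log2(FPKM + 1) scale was −0.97 (SE 0.15, 95% interval −1.32 to −0.62, adjusted p = 0.0421 by limma-trend), or −0.82 relative to the median gene. The authors' deposited table gave −0.81 (SE 0.13, adjusted p = 3.08e-07) at a mean normalised count of 4514. The limma-trend call was near its threshold: adjusted p was 0.218 without WT 5, 0.0903 without WT 6, 0.0594 without KO 7 and 0.0805 without KO 8, and 0.0508 with a pseudocount of 0.1, while the log2 fold change stayed between −1.05 and −0.81 in every alternative run.

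Egr3, a relative of Egr1 that acts downstream of neuronal activity, was near the lower end of the table. It measured 2.23 and 1.77 FPKM in WT and 0.757 and 1.96 in KO. Only KO 7 was low, so the groups overlapped and the log2 fold change of −0.39 had a wide interval (−1.13 to 0.34, adjusted p = 0.519 by limma-trend). The authors' deposited table gave −0.05 at a mean normalised count of 74.7.

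The AP-1 factors are dimers of a Fos and a Jun protein, or of Jun proteins with each other. Fos measured 20.1 and 20.6 FPKM in WT and 21.7 and 18.3 in KO neurospheres. The groups overlapped, with a log2 fold change of −0.03 and an interval of −0.40 to 0.34 (adjusted p = 0.934), and the sign turned to 0.13 after median-ratio rescaling of the libraries. Jun measured 73.3 and 75.8 FPKM in the WT libraries, against 58.0 and 51.9 in KO. Both KO libraries were lower, with a log2 fold change of −0.43 (interval −0.77 to −0.10) that missed the threshold (adjusted p = 0.177) and was −0.29 relative to the median gene. The annotated antisense gene Junos overlaps Jun on the other strand, and the sources used here do not say whether counting used strand, so the Jun value is uncertain to that extent.

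Fosb, whose short splice form accumulates in neurons after repeated stimulation, had the highest KO to WT ratio of the members, 2.42. Its levels were 1.26 and 1.55 FPKM in WT and 3.85 and 2.97 in KO. The KO libraries lay above both WT libraries, but the log2 fold change of 0.87 (SE 0.24, interval 0.30 to 1.44) had an adjusted p of 0.135 by limma-trend. With 1 library left out the log2 fold change lay between 0.73 and 1.01. The authors' deposited table called Fosb higher (0.92, SE 0.27, adjusted p = 0.0196, mean normalised count 180.8). Junb measured 6.10 and 5.15 FPKM in WT against 6.42 and 5.89 in KO. These groups overlapped (log2 fold change 0.11, interval −0.36 to 0.58). Junb shares its locus with Prdx2 on the other strand.

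Summed over Fos, Fosb, Jun and Junb, AP-1 transcripts reached 100.7 and 103.2 FPKM in WT and 89.9 and 79.1 in KO. Jun made up 72.8% and 73.5% of this sum in WT and 64.5% and 65.7% in KO. Fosb made up 1.25% and 1.51% in WT and 4.28% and 3.76% in KO, and Fos 19.9% and 20.0% against 24.1% and 23.1%. The groups did not overlap in these shares, which are given without a test. The shares are parts of 1 sum per library, so a lower share of Jun raises the others. The FPKM of Fos itself overlapped between the groups.

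**Figure D2:**
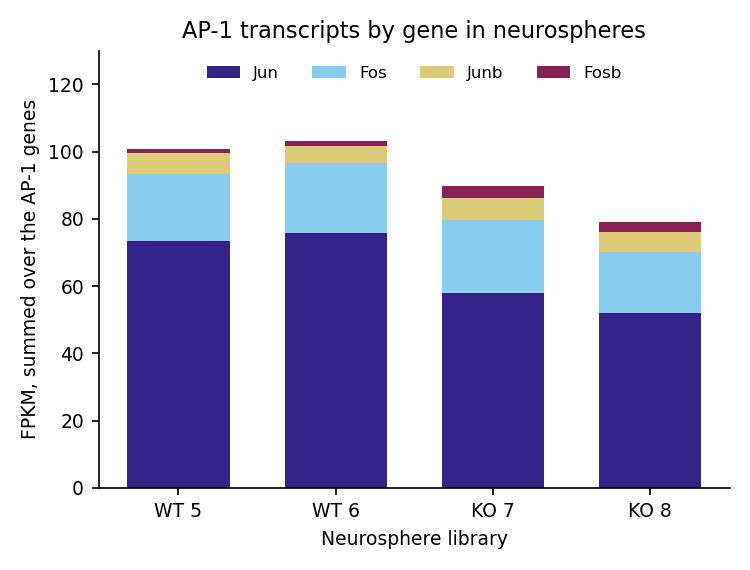
FPKM of Jun, Fos, Junb and Fosb stacked for each neurosphere library, so that the bar height is their sum. The sums are 100.7 and 103.2 in WT and 89.9 and 79.1 in KO, and the Jun segment is the part that is shorter in both KO libraries.

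Npas4, a factor that responds to calcium influx in neurons, measured 21.0 and 22.8 FPKM in WT and 30.2 and 26.5 in KO neurospheres. Both KO libraries were higher, with a log2 fold change of 0.36 that missed the threshold (adjusted p = 0.251, or 0.51 relative to the median gene). The authors' deposited table gave 0.47 (adjusted p = 0.0736, mean normalised count 1648). Arc, a capsid-like protein that regulates AMPA receptor uptake at synapses, went the other way. It measured 5.57 and 5.84 FPKM in WT and 2.48 and 3.36 in KO, a ratio of 0.512, with both KO libraries lower. Its log2 fold change was −0.78 (interval −1.31 to −0.26, adjusted p = 0.139), and −0.62 in the authors' deposited table (adjusted p = 0.143).

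Ier2, a nuclear protein induced by growth factors, measured 18.4 and 11.98 FPKM in WT and 8.98 and 6.08 in KO neurospheres. The KO libraries were lower by a ratio of 0.496, but the libraries within each group stood apart by 0.58 (WT) and 0.50 (KO) on the log2 scale. The log2 fold change of −0.92 (interval −1.53 to −0.30) missed the threshold (adjusted p = 0.139). With 1 library left out the log2 fold change lay between −1.20 and −0.63. The authors' deposited table gave −0.51 (adjusted p = 0.288). Dusp1, a phosphatase that switches off MAP kinases, measured 28.0 and 26.0 FPKM in WT and 38.0 and 28.8 in KO. KO 8 lay barely above WT 5, and the log2 fold change was 0.29 (interval −0.12 to 0.70, adjusted p = 0.399). GENCODE lists 4 genes that overlap the Dusp1 locus, Ergic1 and another on the other strand and a pair on the same strand, so the Dusp1 values are uncertain even if counting used strand.

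The neurosphere table held no endothelial or pericyte marker (0 of 11) and only 1 of 12 microglial markers. Of the other lists, 6 of 7 interneuron markers rose in KO, with a summed level of 138.5 to 157.8 FPKM in WT and 305.6 to 318.5 in KO. Of 8 radial glia markers 1 fell, and their sum was 1219 to 1568 FPKM in WT and 812.7 to 987.1 in KO. The astrocyte sum was 494.6 to 581.0 FPKM in WT and 361.8 to 485.6 in KO, with 1 of 6 markers lower. The single meningeal marker in the table rose, with 1.71 to 2.98 FPKM in WT and 9.46 to 10.45 in KO. The single blood marker also rose, with 5.47 to 9.87 FPKM in WT and 22.1 to 25.5 in KO. Of 11 neuron markers 1 rose, with overlapping sums (1287 to 1556 FPKM in WT, 1444 to 1562 in KO). Of 8 oligodendrocyte lineage markers 1 rose, while their sum was 239.9 to 267.4 FPKM in WT and 226.7 to 236.9 in KO. Over all genes tested in neurospheres 0.219% were called higher and 0.929% lower. The part of these markers in the values of the early genes was not tested, and in bulk RNA fewer cells of a type and less RNA per cell cannot be told apart.

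In newborn cortex the 5 members with FPKM values all changed, and 4 of them rose. Ier2 rose by a ratio of 2.15, Dusp1 by 1.44, Egr1 by 1.39 and Jun by 1.38, while Egr3 fell to a ratio of 0.644. Over all 11988 genes tested by limma-trend with BH, 22.5% were called, 4.80% higher and 17.7% lower. The groups did not overlap for any of the 5, and KO lay wholly above WT in 15.5% of all genes and wholly below in 50.2%. The median log2 fold change was 0.43 over the 5 members and −0.10 over all genes. All 5 calls and their directions remained after median-ratio rescaling, which sets the median of all genes to 0. Each of the 5 had a gap between the WT libraries of at most 0.24 on the log2 scale.

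**Figure D3:**
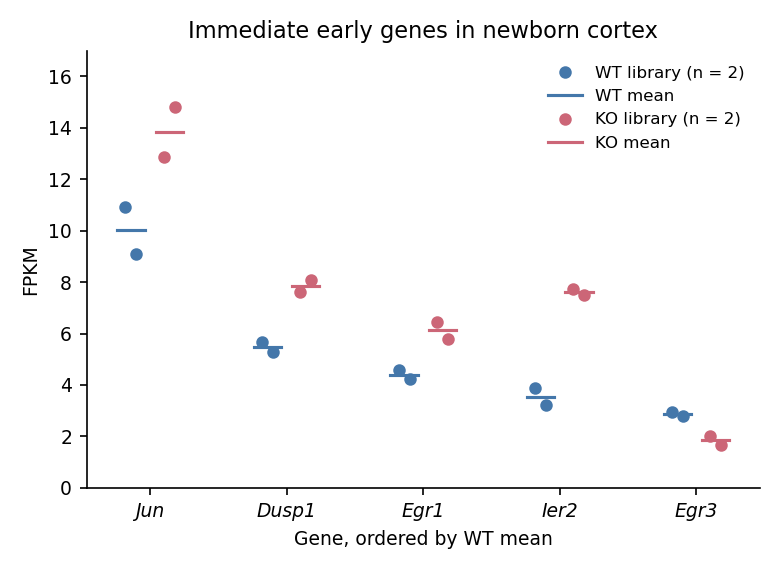
FPKM of the 5 immediate early genes in the cortex table, with each library as a point, the group mean as a line and n = 2 per group. KO libraries lie above WT for Jun, Dusp1, Egr1 and Ier2 (from 3.54 to 7.61 FPKM on average for Ier2) and below WT for Egr3.

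Ier2 measured 3.87 and 3.20 FPKM in WT 1 and WT 2 and 7.73 and 7.49 in KO 1 and KO 2. The KO libraries agreed closely and lay far above WT, with a log2 fold change of 0.93 (SE 0.10, interval 0.70 to 1.15, adjusted p = 0.00111), and it stayed called without any 1 of the libraries. Its place among the 5 moved from rank 4 in WT to rank 2 in KO 1 and rank 3 in KO 2. The authors' deposited table gave 0.97 (SE 0.17, adjusted p = 1.36e-06, mean normalised count 214.7).

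Dusp1 measured 5.66 and 5.27 FPKM in WT and 7.62 and 8.09 in KO cortex, and the KO libraries were both higher. The log2 fold change was 0.45 (SE 0.09, adjusted p = 0.00922, or 0.0722 without KO 2). Jun measured 10.9 and 9.11 FPKM in WT, against 12.9 and 14.8 in KO, and it stood first of the 5 in every cortex library. Its log2 fold change was 0.43 (SE 0.10, adjusted p = 0.0196), and the call was lost without WT 2 (0.31, adjusted p = 0.0752) and without KO 2 (0.34, adjusted p = 0.147). The authors' deposited table called both higher, Dusp1 by 0.55 (adjusted p = 0.003) and Jun by 0.51 (adjusted p = 0.000419).

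Egr1 measured 4.58 and 4.22 FPKM in WT and 6.47 and 5.80 in KO cortex. Both KO libraries were higher, on average by 0.40 on the log2 scale (SE 0.09, BH-adjusted p = 0.0185), and the authors' deposited table gave 0.50 (adjusted p = 0.00436). The limma-trend call was lost without WT 2 (adjusted p = 0.0698), without KO 1 (adjusted p = 0.106) and without KO 2 (adjusted p = 0.0546). Egr3 measured 2.96 and 2.78 FPKM in WT and 2.02 and 1.68 in KO, so that here, unlike Egr1, both KO libraries were lower. Its log2 fold change was −0.44 (SE 0.10, adjusted p = 0.0164), with the call lost without WT 1 (adjusted p = 0.0638) and without KO 2 (adjusted p = 0.108). The authors' deposited table gave −0.31 for Egr3 at a mean normalised count of 63.8 and did not call it (adjusted p = 0.436).

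KO 2 stood apart from the other cortex libraries in Rn45s, the ribosomal RNA precursor, at 3438 FPKM against 830.4 in KO 1 and 289.3 and 265.8 in WT. Without it only Ier2 remained called among the 5 members, but the log2 fold changes stayed near those with it, at 0.34 for Jun, 0.47 for Egr1, −0.36 for Egr3, 0.95 for Ier2 and 0.41 for Dusp1. Calls over all genes went from 2699 to 820 without KO 2, and to 994 without KO 1. With 1 estimate of spread over all 8 libraries none of the 5 passed in cortex (adjusted p 0.137 for Ier2 to 0.455 for Egr3 by limma-trend), a fit in which 6 genes in all were called in cortex and 1480 had an unadjusted p under 0.05.

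Fos, Fosb, Junb, Npas4 and Arc had no row in the cortex FPKM table, which held no gene with a WT value below 1 FPKM. For these genes only the authors' deposited DESeq2 table could be read, in which mean normalised counts ranged over all members from 6.20 for Fosb to 1015 for Jun. That table called Fos higher in KO cortex (log2 fold change 0.71, SE 0.22, adjusted p = 0.0126, mean normalised count 67.3). It gave 0.21 for Junb (adjusted p = 0.639), 0.03 for Arc (adjusted p = 0.957) and 0.02 for Npas4 (adjusted p = 0.974), and 0.15 for Fosb with no adjusted p. Of the 9 members with an adjusted p, 5 were thus called higher and 0 lower, against 6.36% and 5.55% of 14425 genes (11.9% in either direction) in the authors' deposited table (Arc, Npas4, Junb and Egr3 were not called). In neurospheres that table called 1 member higher and 1 lower of 10, against 3.50% and 2.31% of 12530 genes (5.81% in either direction).

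**Figure D4:**
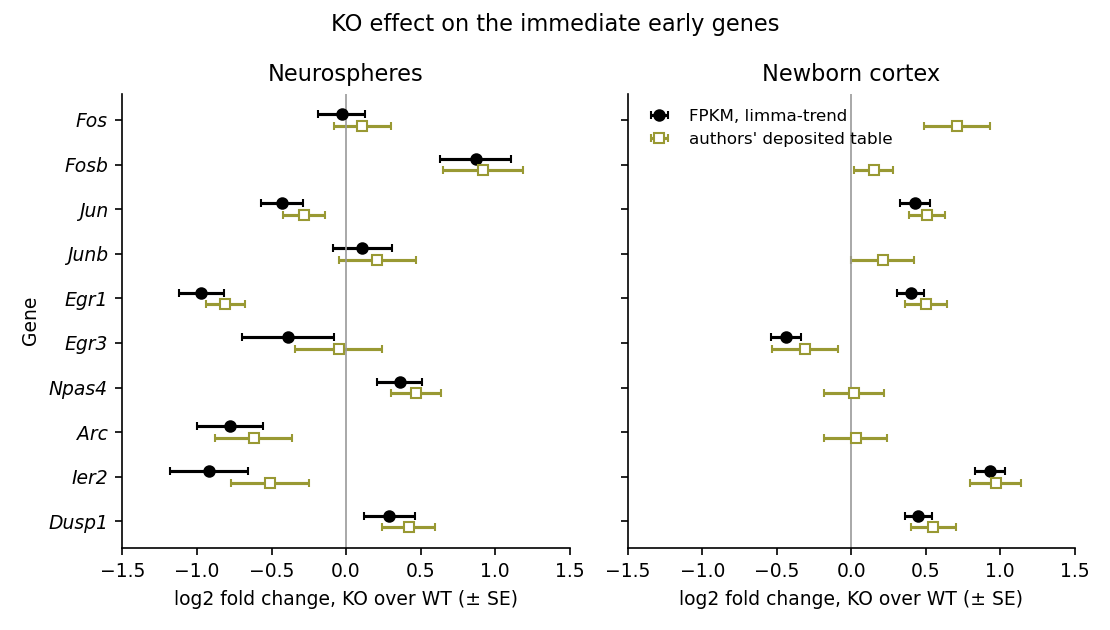
Log2 fold change of KO over WT with its SE for each of the 10 genes, from the FPKM values by limma-trend (filled circles) and from the authors' deposited DESeq2 table (open squares), in neurospheres on the left and cortex on the right. Genes with no circle in cortex had no FPKM row there, and Egr1 and Ier2 lie left of 0 in neurospheres and right of 0 in cortex.

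Among cell type markers in cortex, 6 of 12 microglial markers rose and 1 fell, with a summed level of 81.7 to 85.9 FPKM in WT and 95.8 to 110.8 in KO. Of 9 meningeal fibroblast markers 7 rose (sum 126.9 to 130.6 against 160.2 to 166.6 FPKM), and of 11 endothelial and pericyte markers 1 rose (124.9 to 128.0 against 138.0 to 145.5). Of 6 astrocyte markers that the table held, 4 rose and 2 fell (sum 409.0 to 433.4 against 647.8 to 712.2 FPKM). No marker of these lists was listed at 0 in any cortex library. Of 8 radial glia markers 3 rose (1054 to 1155 against 1383 to 1471 FPKM) and of 8 oligodendrocyte lineage markers 4 rose (61.9 to 72.4 against 80.0 to 91.1). Of 11 neuron markers 2 rose and 1 fell (2845 to 2849 against 2892 to 2928 FPKM). The groups overlapped in the sums of blood markers (290.8 to 355.3 against 300.4 to 364.3) and interneuron markers (92.45 to 103.3 against 95.25 to 97.33). In these lists 0 markers were called, whereas over all genes 4.80% were called higher and 17.7% lower. The sums of the other lists were higher in both KO libraries, as were 4 of the 5 early genes. The part of all these markers in the early gene values was not tested. Of 10 heat shock chaperone genes in the cortex fit, which respond to stress and handling, 0 rose and 2 fell (Hsph1 from 52.1 ± 1.76 to 34.4 ± 0.529 FPKM and Hspe1 from 108.1 ± 5.78 to 92.4 ± 0.698, SD, n = 2), from 1 and 3 at an unadjusted p under 0.05. This stands against 4.80% higher and 17.7% lower over all genes in cortex, of which 39% had an unadjusted p under 0.05 by limma-trend. A part of handling in the early gene values was not tested. After rescaling, which called 2071 of all genes against 2699 without it, 1 rose and 1 fell. The authors' deposited table also called 1 higher and 1 lower, of 12 genes, against 6.36% and 5.55% of all its genes. It gave 0.10 for Hspe1 (adjusted p = 0.851). In neurospheres 0 of 11 passed by limma-trend, with 0 higher and 2 lower at an unadjusted p under 0.05. The authors' deposited table called 1 lower there, as it did 2.31% of its genes. Over all genes in neurospheres 1.15% passed by limma-trend and 20.1% had an unadjusted p under 0.05.

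The KO effect differed between the tissues for 2 of the 5 members measured in both, Egr1 and Ier2, which were lower in KO neurospheres and higher in KO cortex. The neurospheres and the cortex also differ in age (E16.5 and P0) and in culture (day 4 and none). Their tables were normalised separately, and the neurosphere Cre driver is not named. Tissue, age, culture and driver cannot be told apart in this difference. A limma-trend fit of the 8 libraries tested the cortex effect minus the neurosphere effect, each taken within its own table. Of 10947 genes 1.40% were called (0.977% with the higher effect in cortex and 0.420% with the lower). The SE and p-values rest on 1 estimate of spread over all 8 libraries. With that spread 6 genes in all were called in cortex and 1670 in neurospheres, against 2699 and 131 with a spread per tissue. Of the 5 members, 0 then passed in cortex and 3 in neurospheres (Jun, Egr1 and Ier2). For Egr1 the difference was 1.37 on the log2 scale (SE 0.15, interval 1.02 to 1.73, adjusted p = 0.00934). For Ier2 it was 1.84 (SE 0.31, interval 1.12 to 2.57, adjusted p = 0.0347). A called difference with a value below 0 in neurospheres and above 0 in cortex, as in these genes, was found in 0.630% of all genes.

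Jun had the same pair of signs, −0.43 and 0.43, and its difference of 0.87 (interval 0.47 to 1.26) narrowly missed the threshold (adjusted p = 0.0521). Egr3 was lower in both tissues and Dusp1 higher in both, with differences of −0.05 (interval −0.82 to 0.72) and 0.17 (interval −0.29 to 0.62). Both calls were lost without any 1 of the 4 cortex libraries, which gave an adjusted p of 0.0538 to 0.0959 for Egr1 (without KO 2 and without KO 1) and of 0.143 to 0.215 for Ier2 (without WT 1 and without KO 1). The Ier2 call was also lost without neurosphere WT 5. With 1 library left out of any group, the difference lay between 1.56 and 2.13 for Ier2 and between 0.75 and 0.99 for Jun.

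As for levels, WT Egr1 averaged 103.1 ± 7.97 FPKM in neurospheres and 4.40 ± 0.250 in cortex, and WT Jun 74.55 ± 1.81 and 10.01 ± 1.28 (SD, n = 2). WT Dusp1 averaged 27.0 ± 1.40 and 5.47 ± 0.275 FPKM and WT Ier2 15.2 ± 4.52 and 3.54 ± 0.471, whereas Egr3 was the exception, with 2.00 ± 0.330 in neurospheres and 2.87 ± 0.121 in cortex. The tables were normalised separately, so these levels stand side by side without a test.

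**Figure D5:**
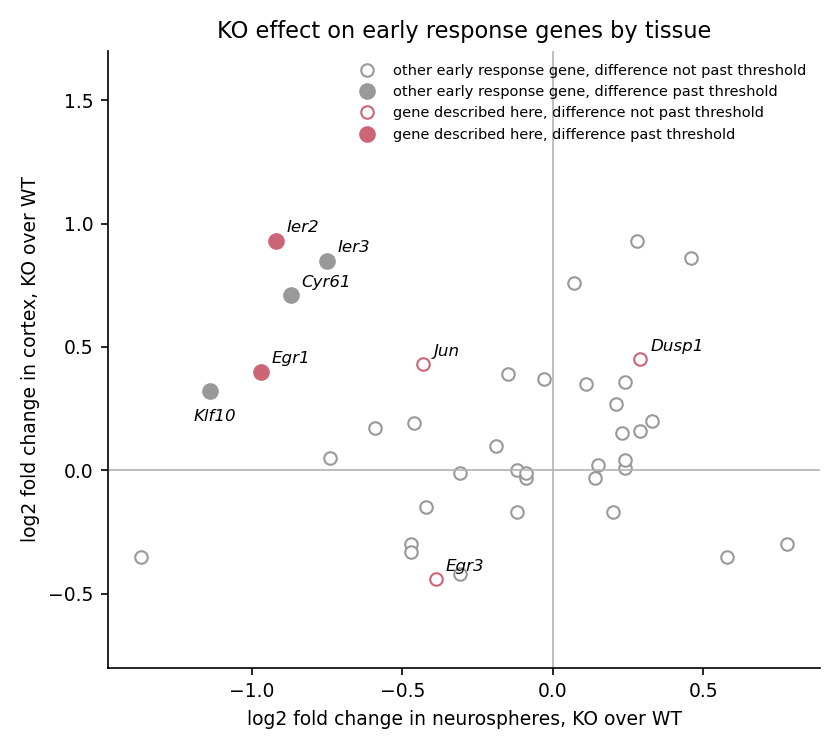
Log2 fold change of KO over WT in neurospheres (horizontal) and in cortex (vertical) for early response genes present in both FPKM tables (red for the genes described here, grey for others), with filled points where the difference between tissues passed the threshold. The 5 filled points, Egr1, Ier2, Ier3, Cyr61 and Klf10, all lie at the upper left, lower in KO neurospheres and higher in KO cortex.

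A wider list of 52 other early response genes gave 41 tested genes in neurospheres, of which 0 rose and 1 fell by limma-trend (1 and 8 at an unadjusted p under 0.05, which 20.1% of all genes reached), and 39 in cortex, of which 8 rose and 3 fell. Over all genes the shares called were 1.15% in neurospheres, and 4.80% higher and 17.7% lower in cortex. The list medians were −0.09 and 0.04, against −0.15 and −0.10 over all genes. After rescaling 11 rose and 1 fell in cortex, in a fit that called 2071 of all genes, against 2699 without rescaling. The shares over all genes by direction after rescaling are not given here. The counts in cortex changed with 1 library left out, which leaves a single library in that group. The authors' deposited table called 1 higher and 3 lower in neurospheres, and 8 and 2 in cortex.

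The gene that fell in neurospheres was Bhlhe40, a basic helix-loop-helix repressor, from 17.3 and 20.0 to 5.86 and 7.42 FPKM (log2 fold change −1.37, adjusted p = 0.035). In cortex its value was −0.35 (adjusted p = 0.0444), a call lost after rescaling (adjusted p = 0.154) and without any 1 library, and the authors' deposited table did not call it (−0.28, adjusted p = 0.278). Among genes that rose in cortex were the kinase gene Sgk1, from 17.5 and 16.1 to 35.0 and 30.9 FPKM (log2 fold change 0.93, adjusted p = 0.000491), and the orphan nuclear receptor gene Nr4a2, from 17.7 and 17.9 to 34.4 and 31.9 (0.86, adjusted p = 0.000312). On this scale, which understates low genes, Ier3 rose by 0.85 (KO to WT ratio of FPKM 2.26, adjusted p = 0.00174), the polo-like kinase gene Plk2 by 0.76 (adjusted p = 0.0013) and Cyr61, which encodes a secreted matrix protein, by 0.71 (ratio 2.00, adjusted p = 0.00411). Homer1, a postsynaptic scaffold, fell (log2 fold change −0.42, adjusted p = 0.011). Egr2, another EGR factor, had no FPKM row in cortex, and the authors' deposited table called it lower there (−0.64, adjusted p = 0.0304, mean normalised count 36.9).

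Of the 35 genes of this list in both tables, 3 had a KO effect that differed between the tissues, with log2 fold changes below 0 in neurospheres and above 0 in cortex, as in Egr1 and Ier2. Over all genes 1.40% had a called difference, and 0.630% had one with these signs. How the calls of these 3 genes fare with 1 library left out is not given here, whereas those of Egr1 and Ier2 were lost without any 1 cortex library. In neurospheres alone none of the 3 passed by limma-trend (adjusted p 0.0516 for Klf10, 0.121 for Cyr61 and 0.155 for Ier3). Klf10, a zinc finger factor of TGF-beta signalling, measured 20.1 and 20.9 FPKM in WT and 10.4 and 7.38 in KO neurospheres, and 5.25 and 4.90 against 6.62 and 6.50 in cortex (difference 1.45, adjusted p = 0.0242). The authors' deposited tables called Klf10 lower in neurospheres (−1.03, adjusted p = 1.6e-05) and higher in cortex (0.41, adjusted p = 0.0241). Cyr61 had a difference of 1.58 (adjusted p = 0.027) and Ier3 one of 1.60 (adjusted p = 0.0438). In the authors' deposited neurosphere table neither was called (−0.50, adjusted p = 0.298 for Cyr61, and −0.51, adjusted p = 0.208 for Ier3).

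Of 34 kinases and transcription factors that act upstream of the early genes, 0 passed in neurospheres by limma-trend. At an unadjusted p under 0.05, 3 were higher and 3 lower, against 20.1% of all genes. The authors' deposited table called 2 of the 34 higher there, against 3.50% of its genes. In cortex 7 of the 34 were called, 3 higher and 4 lower, a share near the 22.5% of all genes, and the list median was −0.10, the same as over all genes. Those that rose were the calcium-dependent kinase gene Camk2b (0.50, adjusted p = 0.00189) and the activity-regulated factors Mef2d (0.30, adjusted p = 0.0354) and Mef2c (0.26, adjusted p = 0.0316). The kinase genes Rps6ka2, Camk4, Mapk10 and Braf fell, with log2 fold changes of −0.57 for Rps6ka2 (adjusted p = 0.00405) and −0.48 for Camk4 (adjusted p = 0.00877). After rescaling 5 rose and 3 fell, in a fit that called 2071 of all genes, against 2699 without rescaling.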

How the data were processed

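Per the labels' protocols, total RNA was isolated with a Qiagen kit and sequenced from oligo-dT primed, stranded mRNA libraries on a HiSeq2500. The authors used Cufflinks, Bowtie, DESeq2, featureCounts, STAR and Trim Galore with mouse build mm9, per the submitters' processing notes. Their versions and settings are not given in the sources used here. In the deposited files, the authors gave FPKM values from Cufflinks for each library. The authors also deposited DESeq2 results per tissue, with a signal column (mean normalised count), a log2 fold change, its standard error (listed among the units as a score) and a p-value with its adjusted value, and gene ontology tables with a p-value per term. These appear only as the authors' values. The 16 columns of FPKM interval bounds, whose header does not name a library, were left out. Depth per library is unknown from FPKM, so depth is given by the mean normalised counts alone.

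Rows named by a calendar date (20 in neurospheres, 21 in cortex) were removed and repeated symbols (20 and 29) kept once, at their highest mean. The tables hold genes whose WT values were about 1 FPKM or more, so genes that came on only in KO are outside them. Genes averaging 1 FPKM or more entered limma-trend (limma 3.58.1, R 4.3.3) on log2(FPKM + 1), a scale that understates changes of low genes, with two-sided tests and BH adjustment over all genes. The design text counts 2 WT and 2 KO brains per tissue, and p-values measure the spread between these libraries. The fits were tested on simulated data. Alternatives were another pseudocount (0.1), no filter, median-ratio and quantile scaling, no trend, 1 spread over 8 libraries, the replicate number as a block in cortex and leaving out each library. Leaving out each library in the test of the difference was added after seeing the data. The members, lists and tests were chosen with earlier results of these data known. All 10 members are described, and of the other lists up to 6 called genes per comparison, by the size of the change. Naming genes whose pattern is most like Fos over all libraries could not be done, since Fos had an FPKM row in 1 table. Egr2, Mef2c, and Bhlhe40 and Klf10 in cortex, fall outside this rule and were named after their values were seen. Tables and figures were made with Python 3.11.15, pandas 2.3.3 and matplotlib 3.10.9.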

Additional observations from a re-analysis of the deposited data

Results flagged for a closer look

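The KO effect differed between the tissues by the test of the difference itself for 2 genes. Tissue, age, culture and Cre driver cannot be told apart in this test. For Egr1 the cortex effect minus the neurosphere effect was 1.37 on the log2 scale, with KO to WT ratios of 0.505 in neurospheres and 1.39 in cortex. For Ier2 the difference was 1.84, with ratios of 0.496 and 2.15, of which the neurosphere change alone was not called (adjusted p = 0.139 by limma-trend). Both differences lost their call without any 1 cortex library.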

How the results depend on the processing

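In neurospheres 1 of 10 members was called, and 0 with a pseudocount of 0.1, 0 in limma without the trend, 3 of the 5 that could be fitted with 1 spread over all 8 libraries (Jun, Egr1 and Ier2, in a fit that called 1670 of all genes, against 131), and 2 in the authors' deposited table (Fosb and Egr1). The Egr1 call was lost without any 1 library, in fits where a single library is assumed to vary like the others. The log2 fold change then stayed between −1.05 and −0.89 for Egr1, 0.73 and 1.01 for Fosb, and −1.20 and −0.63 for Ier2. In cortex all 5 members were called, 0 with 1 spread over all 8 libraries, and 1 to 4 with 1 library left out. The difference between tissues was called for 2 members, and both calls were lost without any 1 cortex library. Signs turned for the neurosphere value of Fos (−0.03), to 0.13 after median-ratio rescaling, 0.07 after quantile normalization and −0.15 to 0.09 with 1 library left out. They also turned for the difference of Egr3 (−0.05), to 0.04 with a pseudocount of 0.1 and −0.43 to 0.32 with 1 library left out, and of Dusp1 (0.17), at −0.03 to 0.36 with 1 library left out. None of these was called. Of 215 member values under alternatives, 173 kept their sign and side of the threshold. With the replicate number as a block in cortex 5 of 5 members were called. WT 1 minus WT 2 and KO 1 minus KO 2 correlated at −0.0955 across genes, and the labels do not say that the numbers pair the samples. No paired analysis was possible in neurospheres because no number is shared. Mean normalised counts of 6.20 to 105 for the members without cortex FPKM values limit what could be seen there.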

Other observations

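In the authors' deposited gene ontology tables, Egr1 was named in 35 and Fosb in 4 of 2001 terms for neurospheres, and Ier2 in 5 of 858 terms for cortex. The other members were named in none. None of the terms that name a member had an adjusted p under 0.05 in those tables.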
